A study of Mus musculus with 33 samples.

Results

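TGF-beta signaling was followed through 9 genes, out of 30168 gene symbols found in any of 4 deposited tables, across 33 mouse RNA-seq libraries of mammary origin. They were chosen by symbol, but with earlier results of these data known. The set holds the ligand genes Tgfb1, Tgfb2 and Tgfb3 and the receptor genes Tgfbr1, Tgfbr2 and Tgfbr3. It also holds the signaling genes Smad3 and Smad7 and the response gene Tgfbi. All 9 symbols were present in each table. The study concerns Trps1, a gene for a GATA-type zinc finger repressor, in mammary epithelial cells, organoids and tumors.

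Mouse HC11 mammary epithelial cells, an established line, received the histone deacetylase inhibitor TSA (trichostatin A, 300 nM) for 24 h or its solvent DMSO, with 3 libraries each. The same line carrying a Trps1 guide (sgTrps1) or a scrambled one (sgScr) was measured in 2 libraries each, and each arm rests on 1 guide. Primary mammary organoids were transduced with AdCre, a Cre-expressing adenovirus, and grown in Matrigel for 28 or 14 days. Their genotypes were Cdh1F/F;Trps1F/F, Cdh1+/F;Trps1F/F and Cdh1F/F;Trps1+/+, with 2 libraries per genotype and day, and they are written below without the semicolon, the last as Trps1+/+. All 3 genotypes carry at least 1 floxed allele of Cdh1, the gene of E-cadherin. Any cell of an organoid culture could take up the virus, so recombination was not restricted to the epithelium by a promoter. Tumors came from WAP-cre;Cdh1F/F;Trps1F/F mice (8 tumors of 6 mice) and WAP-cre;Cdh1F/F;Trps1+/+ mice (3 tumors of 3 mice). The WAP promoter drives Cre in mammary epithelium, so stromal cells of these tumors keep the floxed alleles. The labels put 4 tumors of 3 mice in subgroup_one, 2 tumors of 2 mice in subgroup_two and 2 tumors of 2 mice in subgroup_three. One mouse gave 3 tumors, which lie in subgroup_one and subgroup_three. No source used here says how the subgroups were drawn, so a gene that helped to define them could differ for that reason. Ages are not given in the labels.

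TGF-beta ligands are made as latent precursors that are stored in the matrix with latent TGF-beta binding proteins and released by integrins or thrombospondin. The active ligand binds the type II receptor (Tgfbr2), which recruits and phosphorylates the type I receptor (Tgfbr1). The type I receptor then phosphorylates Smad2 and Smad3, which enter the nucleus with Smad4. In the mammary gland, TGF-beta restrains growth of the ducts, and in epithelial cells it can promote a mesenchymal program.

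Values are normalized counts per library on the scale of the authors' tables, in which each table was normalized on its own. Libraries held between 14858175 and 38773075 reads, and 3 reads in 1 library equal 1.55 to 4.51 normalized counts. A log2 fold change compares group means of log2(normalized count + 1) and is given with its standard error, from limma with Benjamini-Hochberg adjustment over all genes tested, and a gene is called at an adjusted p under 0.05. Nothing in the labels says that the 2 or 3 libraries of a cell line or organoid group come from separate cultures, so their p-values measure the spread between these libraries, which may be technical. Trps1 had 2009, 1905 and 1929 counts with TSA, against 16654, 15988 and 15668 with DMSO (log2 fold change -3.05 ± 0.038, adjusted p = 6.79e-14). It had 14786 and 15418 counts in sgTrps1 cells, against 14212 and 15186 in sgScr cells (log2 fold change 0.039, 95% interval -0.13 to 0.21, adjusted p = 0.676), so the level of this mRNA does not check the guide. In organoids Trps1 ranged from 2123 to 2676 in Cdh1F/F Trps1F/F libraries and from 700 to 1050 in Cdh1+/F Trps1F/F libraries, against 11628 to 15949 in Trps1+/+ libraries. Cdh1 ranged from 12253 to 15724 in Cdh1F/F Trps1F/F libraries and from 8413 to 11729 in Cdh1+/F Trps1F/F libraries, against 8629 to 12204 in Trps1+/+ libraries. Its level was highest in a Cdh1F/F genotype, so this mRNA does not check the Cdh1 alleles. Trps1 levels of Trps1F/F tumors (954 to 6353) overlapped those of Trps1+/+ tumors (2821 to 7878).

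The results on Tgfb2, Tgfbr2 and Tgfbi carry much of what follows, so the start regions of these 3 genes are shown, taken from RefSeq on GRCm38.p6. In the gene annotation of the same genome build, Tgfb2 lies on the minus strand at chr1:186622792-186705989, Tgfbr2 on the minus strand at chr9:116084293-116175360 and Tgfbi on the plus strand at chr13:56609523-56639562. Each run has 300 bases around the RefSeq start of the gene, most of them upstream, 5′ to 3′ on the strand of the gene. Capitals mark the motif GATA, the core of GATA factor sites, or TATC, the same motif on the other strand.
Tgfb2 (chr1:186705940-186706239, minus strand): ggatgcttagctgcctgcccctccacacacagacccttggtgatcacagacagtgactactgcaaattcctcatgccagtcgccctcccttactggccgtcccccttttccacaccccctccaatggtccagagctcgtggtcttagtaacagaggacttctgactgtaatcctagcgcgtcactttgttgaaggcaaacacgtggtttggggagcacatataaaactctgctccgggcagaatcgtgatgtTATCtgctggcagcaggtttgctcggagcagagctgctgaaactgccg
Tgfbr2 (chr9:116175314-116175613, minus strand): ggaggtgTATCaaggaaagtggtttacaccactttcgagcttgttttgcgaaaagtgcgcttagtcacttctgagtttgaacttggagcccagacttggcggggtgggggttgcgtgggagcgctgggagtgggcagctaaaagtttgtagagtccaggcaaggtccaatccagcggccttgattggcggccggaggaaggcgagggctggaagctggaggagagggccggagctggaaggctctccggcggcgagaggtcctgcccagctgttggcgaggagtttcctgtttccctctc
Tgfbi (chr13:56609336-56609635, plus strand): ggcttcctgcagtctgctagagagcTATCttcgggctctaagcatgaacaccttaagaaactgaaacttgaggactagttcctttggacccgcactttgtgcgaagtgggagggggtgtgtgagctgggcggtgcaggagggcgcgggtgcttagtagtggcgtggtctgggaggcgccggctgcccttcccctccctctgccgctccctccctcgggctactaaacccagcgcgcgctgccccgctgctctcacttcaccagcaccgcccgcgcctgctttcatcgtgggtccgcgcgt
Each of the 3 held 1 match to GATA on either strand, a motif found in 57.9% of 32851 RefSeq start regions of this length. CAGAC, a sequence that Smad proteins bind, occurred 2 times in Tgfb2, 1 time in Tgfbr2 and 2 times in Tgfbi, counting both strands, and was present in 49.6% of all such regions. The AP-1 motif TGANTCA occurred in none of the 3, against 7.81% of all regions. The start regions of Tgfb1 and Smad3 held none of these 3 motifs. These matches describe letters in a window and are not measured binding.

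The first comparison asked how the pathway stood after histone deacetylases were inhibited. With TSA, 85.2% of 13035 tested genes were called (43.6% higher, 41.6% lower), so single calls are common here. Of the 9 TGF-beta genes, Tgfbr3 passed the filter on low values only through the TSA libraries and is left out of the count. Of the other 8, 1 rose (Tgfbr1), 5 fell (all 3 ligands, Tgfbr2 and Smad3) and 2 did not pass the test (Smad7, Tgfbi).

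All 3 ligand genes fell. Tgfb3, the ligand gene with the highest level per kilobase of exon in HC11, had 532, 528 and 531 counts with TSA, against 1459, 1594 and 1672 with DMSO (log2 fold change -1.57 ± 0.056, adjusted p = 1.21e-10). Tgfb2 had 41.5, 55.1 and 45.5 counts with TSA, against 106, 104 and 98.0 with DMSO (log2 fold change -1.11 ± 0.15, adjusted p = 2.31e-05). Tgfb1, which is also the main ligand of immune and blood cells, had 203, 198 and 188 counts with TSA, against 286, 386 and 388 with DMSO (log2 fold change -0.83 ± 0.12, adjusted p = 2.88e-05). For each ligand the TSA and DMSO libraries did not overlap, as was the case for 86.2% of all genes tested.

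The 2 signaling receptors moved in opposite directions. Tgfbr2 had 621, 647 and 655 counts with TSA, against 2829, 3017 and 3183 with DMSO (log2 fold change -2.23 ± 0.05, adjusted p = 3.32e-12). Tgfbr1 had 2723, 2788 and 2925 counts with TSA, against 2324, 2368 and 2206 with DMSO (log2 fold change 0.29 ± 0.043, adjusted p = 4.53e-05). Tgfbr2 was thus low in all 3 TSA libraries while Tgfbr1 was slightly high in all 3. Tgfbr3 encodes betaglycan, a co-receptor that presents ligand, Tgfb2 above all, to the type II receptor. It was near the floor of detection with DMSO, with 24, 36 and 23 reads in TSA libraries, against 3, 1 and 1 reads in DMSO libraries. The ratio of its normalized counts was 14.4 (95% counting interval 5.95 to 45.6), and the fitted log2 fold change was 3.34 in a fit with no filter on low values (adjusted p = 3.50e-06, limma) and 1.78 with a pseudocount of 8 in place of 1.

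Smad3, a transcription factor that carries the signal to the nucleus, had 789.9, 791 and 806 counts with TSA, against 1390.3, 1458 and 1437 with DMSO (log2 fold change -0.84 ± 0.043, adjusted p = 3.07e-09). Smad7, an inhibitory Smad that TGF-beta itself induces, had 812, 806 and 773 counts with TSA, against 810.2, 839 and 1029 with DMSO. The groups overlapped and the difference did not pass the test (log2 fold change -0.16, 95% interval -0.33 to 0.019, adjusted p = 0.086), but it did without DMSO replicate 1 (-0.22, adjusted p = 0.0113). Tgfbi, a secreted matrix protein named for its induction by TGF-beta, had 36.0, 33.2 and 28.7 counts with TSA, against 28.6, 43.6 and 27.1 with DMSO (log2 fold change 0.0044, 95% interval -0.49 to 0.49, adjusted p = 0.986). With quantile normalization its log2 fold change was -0.70 (adjusted p = 0.010, limma), so no direction is given for it here.

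Other genes of the pathway were described as 3 lists. Of 9 tested genes of latency and ligand activation, 2 rose and 7 fell, including the latent TGF-beta binding proteins Ltbp2 (-3.21, adjusted p = 9.23e-13) and Ltbp1 (-1.69, adjusted p = 2.15e-12). Of 13 tested receptors and Smad regulators, 2 rose and 11 fell, including the Smad co-repressor Tgif1 (-1.88, adjusted p = 1.28e-11) and Pmepa1, a TGF-beta-induced inhibitor of the pathway (-1.73, adjusted p = 7.22e-11). Of 11 response genes, 7 rose and 3 fell. Among those that rose was Ctgf, a matrix-associated growth factor also called Ccn2 (4.43, adjusted p = 1.87e-11). The list medians were -1.10 for latency and activation, -0.95 for receptors and Smad regulators and 1.00 for response genes.

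Markers of other cell types also moved in this line. The summed count of 7 fibroblast markers was 532 to 588 with TSA, against 5399 to 5706 with DMSO, and 4 of the 7 were tested, of which 1 rose and 3 fell. Dpt was at 0 in 2 TSA libraries and 1 DMSO library, and Lum in 1 TSA library. The sum of 6 mammary epithelial markers was 38458 to 39886 with TSA, against 100730 to 112140 with DMSO. Of these 6, 3 rose (Krt18 1.84, adjusted p = 8.45e-09; Krt7 0.69, adjusted p = 1.22e-07; Epcam 0.097, adjusted p = 0.0297) and 3 fell (Krt5 -3.16, adjusted p = 1.61e-13; Krt14 -1.45, adjusted p = 1.44e-10; Krt8 -0.41, adjusted p = 9.12e-07), with a median of -0.16. The part of these shifts in the changes of TGF-beta genes was not tested.

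**Figure D1:**
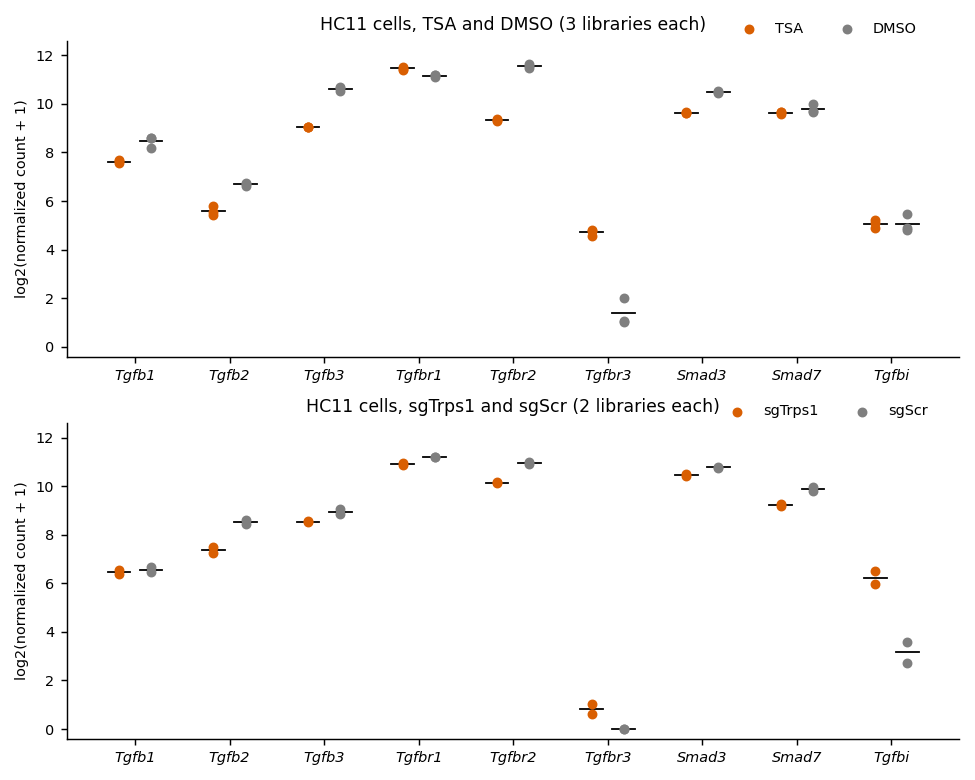
Deposited log2(normalized count + 1) of the 9 TGF-beta genes in HC11 cells, with TSA beside DMSO (top, 3 libraries each) and sgTrps1 beside sgScr (bottom, 2 libraries each). Points are libraries and bars are group means; Tgfbr2 lies lower in both the TSA and the sgTrps1 libraries, and Tgfbi lies higher with sgTrps1 but overlaps between TSA and DMSO.

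The second comparison asked how the same genes stood in HC11 cells with the Trps1 guide. Of 12552 tested genes, 67.0% were called (34.6% higher, 32.4% lower in sgTrps1). Of the 9 TGF-beta genes, Tgfbr3 did not pass the filter on low values, and Tgfbi reached it in both sgTrps1 libraries but in only 1 sgScr library, so both are left out of the count. Of the other 7, 6 fell (Tgfb2, Tgfb3, Tgfbr1, Tgfbr2, Smad3, Smad7) and 1 did not pass the test (Tgfb1).

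Among the ligands, Tgfb2 had 152 and 179 counts in sgTrps1 cells, against 343 and 391 in sgScr cells (log2 fold change -1.14 ± 0.11, adjusted p = 5.59e-07). Tgfb3 had 367 and 373 counts in sgTrps1 cells, against 529 and 458 in sgScr cells (log2 fold change -0.41 ± 0.085, adjusted p = 0.000715). Both were lower in each sgTrps1 library than in either sgScr library, and 83.4% of all genes tested did not overlap between these arms. Tgfb1 had 92.8 and 82.7 counts in sgTrps1 cells, against 99.6 and 87.3 in sgScr cells, and these overlapped (log2 fold change -0.088, 95% interval -0.39 to 0.21, adjusted p = 0.598).

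Both signaling receptors fell. Tgfbr2 had 1118 and 1135 counts in sgTrps1 cells, against 2035 and 1935 in sgScr cells (log2 fold change -0.82 ± 0.059, adjusted p = 4.2e-08). Tgfbr1 had 1848 and 1982 counts in sgTrps1 cells, against 2356 and 2376 in sgScr cells (log2 fold change -0.31 ± 0.059, adjusted p = 0.000427). The betaglycan gene Tgfbr3 was at or under the floor in all 4 libraries, with 1 and 2 reads in sgTrps1 cells, against 0 and 0 reads in sgScr cells.

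Smad3 and Smad7 fell as well. Smad3 had 1360.1 and 1433 counts in sgTrps1 cells, against 1764 and 1739 in sgScr cells (log2 fold change -0.33 ± 0.059, adjusted p = 0.000228). Smad7 had 581 and 614 counts in sgTrps1 cells, against 984 and 896 in sgScr cells (log2 fold change -0.65 ± 0.071, adjusted p = 2.36e-06). Tgfbi had 90.2 and 61.0 counts in sgTrps1 cells, against 11.1 and 5.51 in sgScr cells, and rose in a fit with no filter on low values (log2 fold change 3.08, adjusted p = 0.00167, limma). Its sgScr values rest on few reads, with 171 and 118 reads in sgTrps1 cells, against 17 and 6 reads in sgScr cells.

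Of 10 tested latency and activation genes, 0 rose and 8 fell, with Ltbp1 (-1.94, adjusted p = 1.85e-10) and Ltbp2 (-1.21, adjusted p = 4.73e-09) leading. Receptors and Smad regulators split, with 4 of 13 higher and 5 lower; those that fell included Smurf1, a ubiquitin ligase of the pathway (-0.61, adjusted p = 6.87e-07), and Tgif1 (-0.38, adjusted p = 6.39e-05). Of 10 tested response genes, 2 rose and 7 fell, with Snai1, a transcription factor of the mesenchymal program (-4.15, adjusted p = 2.01e-10), and Fn1, the fibronectin gene (-1.98, adjusted p = 2.3e-08), leading. The list medians were -0.46 for latency and activation, -0.047 for receptors and Smad regulators and -0.62 for response genes. The sum of the epithelial markers was 71172 to 71565 in sgTrps1 cells, against 19424 to 22614 in sgScr cells, with Krt18 at 0 in 3 of the 4 libraries. Of the 5 tested, 2 rose (Krt5 2.68, adjusted p = 3.21e-11; Krt14 1.32, adjusted p = 1.87e-08) and 3 fell (Epcam -1.40, adjusted p = 6.87e-10; Krt7 -2.51, adjusted p = 7.08e-10; Krt8 -0.51, adjusted p = 9.23e-05), with a median of -0.51, so the sum and most of its members differ in sign. The sum of fibroblast markers was 34.3 to 38.3 in sgTrps1 cells, against 87.1 to 100.1 in sgScr cells, and 3 of the 7 were tested. Of these, 0 rose, and the 2 that fell were Col1a2 and Pdgfrb. Both passed the filter on low values only through the sgScr libraries, so their direction was favored by the filter. Whether these shifts take part in the changes of TGF-beta genes was not tested.

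Set side by side, the HC11 experiments use separate control libraries and separately normalized tables. Tgfbr2 had a log2 fold change of -2.23 with TSA and -0.82 with the Trps1 guide, Tgfb2 of -1.11 and -1.14, and Smad3 of -0.84 and -0.33. Tgfbr1 was higher with TSA (0.29) and lower with the guide (-0.31). The difference between the treatments was not tested.

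To compare ligands within a library, counts were divided by exon length and given as a share of the 3 ligand genes. Tgfb3 held the largest share in every HC11 library, at 76.2 to 77.7% with TSA, against 83.3 to 85.2% with DMSO, and at 69.9 to 70.8% with sgTrps1, against 61.5 to 66.4% with sgScr. The share of Tgfb2 was 17.2 to 19.7% with sgTrps1, against 25.2 to 30.7% with sgScr. In organoids Tgfb3 held 74.6 to 92.2%. The Tgfb2 share at day 28 was 10.4 to 13.6% in Cdh1F/F Trps1F/F organoids and 13.9 to 14.4% in Cdh1+/F Trps1F/F organoids, against 2.29 to 2.42% in Trps1+/+ organoids. In tumors the share of Tgfb1 was 46.7 and 56.3% in subgroup_two, 8.98 to 18.3% in subgroup_one and 20.9 to 22.4% in subgroup_three, against 21.7 to 27.5% in Trps1+/+ tumors. Tgfb3 held 69.1 to 80.9% in subgroup_one and 73.1 to 77.2% in subgroup_three, against 68.4 to 74.8% in Trps1+/+ tumors. In the 2 tumors of subgroup_two it held 50.2 and 43.2%, so Tgfb1 exceeded it only in the second. These shares compare transcripts of annotated exon length and not secreted protein. Small parts of the exons of Tgfb2 (2.14%) and Tgfb3 (4.82% and 7.60%) overlap genes on the opposite strand, and the labels do not say whether the libraries kept the strand.

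**Figure D2:**
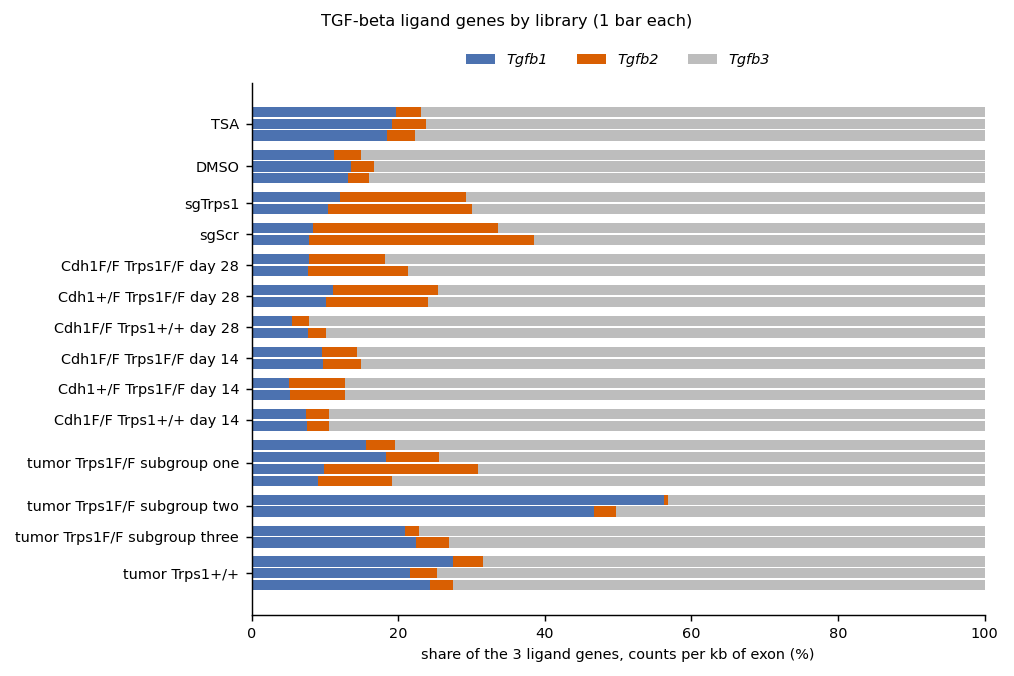
Share of Tgfb1, Tgfb2 and Tgfb3 in the summed counts per kilobase of exon of the 3 ligand genes (horizontal axis, percent), with 1 bar for each of the 33 libraries. Tgfb3 takes the largest share in all libraries but 1 tumor of subgroup_two, and Tgfb1 reaches 46.7 and 56.3% in the 2 tumors of that subgroup.

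In organoids, the 2 Trps1F/F genotypes were each compared with Trps1+/+ organoids, and days were compared within each genotype. The Trps1+/+ organoids are all Cdh1F/F, so Cdh1+/F Trps1F/F organoids differ from them in both genes. The parts of Cdh1 and Trps1 in that contrast cannot be told apart. Loss of Trps1 in Cdh1F/F organoids went with more Tgfb2 and less Tgfbr3 and Tgfbi on both days. The day 14 calls of Tgfb2 and Tgfbi were each lost in 3 of 4 fits that left out 1 library. Organoids with Cdh1+/F Trps1F/F also had more Tgfb2, but far more Tgfbr2, Tgfbr3 and Tgfbi than Trps1+/+ organoids. In Cdh1F/F Trps1F/F against Trps1+/+ organoids, 43.2% of 15860 tested genes were called at day 28 (19.9% higher, 23.4% lower) and 32.4% at day 14 (14.5% higher, 17.9% lower). On each day 1 of the 9 TGF-beta genes rose and 5 fell. In Cdh1+/F Trps1F/F against Trps1+/+ organoids, 53.3% of genes were called at day 28 (28.6% higher, 24.7% lower) and 36.3% at day 14 (18.9% higher, 17.4% lower), and of the 9 genes 5 rose and 3 fell at day 28 and 4 rose and 3 fell at day 14. These comparisons share the Trps1+/+ libraries. Between 2 genotypes on a day, 69.2 to 77.3% of all genes tested did not overlap, so a gap between 2 pairs of libraries is common here.

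Among the ligands, Tgfb2 was higher in both Trps1F/F genotypes. Cdh1F/F Trps1F/F organoids had 1239.9 and 1579 counts at day 28 and 637 and 636 at day 14. Cdh1+/F Trps1F/F organoids had 1536 and 1535 at day 28 and 1305 and 1343 at day 14. Trps1+/+ organoids had 533 and 458 at day 28 and 455 and 528 at day 14. Every Trps1F/F library thus lay above every Trps1+/+ library of its day. For Cdh1F/F Trps1F/F the difference from Trps1+/+ was 1.50 ± 0.12 on the log2 scale at day 28 (adjusted p = 8.74e-07, limma) and 0.38 ± 0.12 at day 14 (adjusted p = 0.0274, limma). For Cdh1+/F Trps1F/F it was 1.63 at day 28 (adjusted p = 1.63e-07, limma) and 1.43 at day 14 (adjusted p = 1.11e-06, limma). Between the Trps1F/F genotypes, Cdh1F/F organoids were lower at day 14 (-1.06, adjusted p = 1.16e-05) and overlapped at day 28 (log2 fold change -0.13, 95% interval -0.39 to 0.12, adjusted p = 0.355).

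Tgfb3 was lower in Trps1F/F organoids at day 28. Cdh1F/F Trps1F/F organoids had 5696 and 5329 counts at day 28 and 6670.5 and 6191 at day 14. Cdh1+/F Trps1F/F organoids had 4657 and 4885 at day 28 and 8805 and 9007 at day 14. Trps1+/+ organoids had 12518 and 9959 at day 28 and 7729 and 9055 at day 14. At day 28, both Trps1F/F genotypes fell below Trps1+/+, by log2 fold change -1.02 ± 0.11, adjusted p = 9.43e-06 in Cdh1F/F organoids and log2 fold change -1.23 ± 0.11, adjusted p = 9.39e-07 in Cdh1+/F organoids. At day 14 the Cdh1F/F Trps1F/F libraries were lower (-0.38, adjusted p = 0.0162), while the Cdh1+/F Trps1F/F libraries overlapped Trps1+/+ (log2 fold change 0.09, 95% interval -0.14 to 0.32, adjusted p = 0.549).

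Tgfb1 varied least among the ligands. Cdh1F/F Trps1F/F organoids had 814 and 769 counts at day 28 and 1120.2 and 1053 at day 14. Cdh1+/F Trps1F/F organoids had 1032 and 965 at day 28 and 770.1 and 791 at day 14. Trps1+/+ organoids had 1112 and 1265 at day 28 and 952 and 1133 at day 14. It fell in Cdh1F/F Trps1F/F at day 28 (log2 fold change -0.58 ± 0.1, adjusted p = 0.000451) and in Cdh1+/F Trps1F/F at day 14 (log2 fold change -0.41 ± 0.1, adjusted p = 0.00594). The call at day 14 did not hold without Trps1+/+ day 14 replicate b (-0.29, adjusted p = 0.0645). The other differences from Trps1+/+ did not pass, at log2 fold change 0.064, 95% interval -0.15 to 0.28, adjusted p = 0.668 in Cdh1F/F Trps1F/F at day 14 and log2 fold change -0.25, 95% interval -0.47 to -0.033, adjusted p = 0.0511 in Cdh1+/F Trps1F/F at day 28.

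Among the receptors, Tgfbr2 and Tgfbr3 were highest in Cdh1+/F Trps1F/F organoids. Tgfbr2 had 4852 and 5232 counts in Cdh1F/F Trps1F/F organoids at day 28 and 6121 and 6054 at day 14. It had 20354 and 17136 in Cdh1+/F Trps1F/F organoids at day 28 and 16038 and 15426 at day 14. It had 4059 and 4964 in Trps1+/+ organoids at day 28 and 8709 and 8600.5 at day 14. Cdh1+/F Trps1F/F organoids exceeded Trps1+/+ by 2.06 on the log2 scale at day 28 (adjusted p = 6.75e-09, limma) and 0.86 at day 14 (adjusted p = 3.17e-05, limma). Cdh1F/F Trps1F/F organoids were below Trps1+/+ at day 14 (log2 fold change -0.51 ± 0.10, adjusted p = 0.00222) and overlapped them at day 28 (log2 fold change 0.17, 95% interval -0.058 to 0.39, adjusted p = 0.215). In bulk samples, fewer cells of a type and less RNA per cell cannot be told apart, and the fibroblast markers given further on were also highest in Cdh1+/F Trps1F/F organoids.

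The betaglycan gene Tgfbr3 separated all 3 genotypes. It had 439 and 791 counts in Cdh1F/F Trps1F/F organoids at day 28 and 1440 and 1306 at day 14. It had 9935 and 9449 in Cdh1+/F Trps1F/F organoids at day 28 and 8111 and 7594 at day 14. It had 1498 and 2504 in Trps1+/+ organoids at day 28 and 3019 and 2739 at day 14. Against Trps1+/+, it fell in Cdh1F/F Trps1F/F organoids on both days (log2 fold change -1.72 ± 0.24, adjusted p = 8.45e-05 at day 28, log2 fold change -1.07 ± 0.24, adjusted p = 0.00389 at day 14). It rose in Cdh1+/F Trps1F/F organoids (log2 fold change 2.32 ± 0.24, adjusted p = 3.7e-06 at day 28, log2 fold change 1.45 ± 0.24, adjusted p = 0.000394 at day 14). Part of its exons, 4.54%, overlaps the gene Gm43422 on the same strand, where reads could be split or left uncounted.

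The type I receptor Tgfbr1 changed its order between days. It had 1415 and 1641 counts in Cdh1F/F Trps1F/F organoids at day 28 and 1799 and 1842 at day 14. It had 2486 and 2509.9 in Cdh1+/F Trps1F/F organoids at day 28 and 1763 and 1602 at day 14. It had 1549.7 and 1528 in Trps1+/+ organoids at day 28 and 2784 and 2273 at day 14. At day 14 both Trps1F/F genotypes were below Trps1+/+, with -0.47, adjusted p = 0.00324 in Cdh1F/F and -0.58, adjusted p = 0.0006 in Cdh1+/F organoids on the log2 scale. At day 28 Cdh1+/F Trps1F/F organoids were above Trps1+/+ (log2 fold change 0.70 ± 0.10, adjusted p = 7.7e-05), and Cdh1F/F Trps1F/F organoids overlapped them (log2 fold change -0.014, 95% interval -0.23 to 0.20, adjusted p = 0.928).

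Smad3 moved little. Its lowest and highest counts over the 12 organoid libraries were 976 and 1371. It was lower than in Trps1+/+ at day 28 in Cdh1F/F Trps1F/F (log2 fold change -0.37 ± 0.079, adjusted p = 0.00219) and in Cdh1+/F Trps1F/F organoids (log2 fold change -0.22 ± 0.079, adjusted p = 0.0356), and the second call was lost when any 1 of the 4 libraries was left out (adjusted p from 0.0810 to 0.136, limma). Neither genotype passed at day 14, with log2 fold change -0.0068, 95% interval -0.18 to 0.16, adjusted p = 0.96 for Cdh1F/F and log2 fold change -0.16, 95% interval -0.33 to 0.011, adjusted p = 0.135 for Cdh1+/F organoids. Smad7 was low in Cdh1+/F Trps1F/F organoids, with 424 and 530.3 counts at day 28, against 806 and 922 in Trps1+/+ organoids (-0.86, adjusted p = 5.46e-05). At day 14 it had 460.2 and 508 counts in Cdh1+/F Trps1F/F organoids, against 708 and 662 in Trps1+/+ organoids (-0.50, adjusted p = 0.00537). Cdh1F/F Trps1F/F organoids had 702 and 788 at day 28 and 796 and 784 at day 14, which did not pass against Trps1+/+ (log2 fold change -0.21, 95% interval -0.47 to 0.046, adjusted p = 0.17 at day 28, log2 fold change 0.21, 95% interval -0.052 to 0.47, adjusted p = 0.21 at day 14).

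The response gene Tgfbi also separated all 3 genotypes. It had 214 and 135 counts in Cdh1F/F Trps1F/F organoids at day 28 and 257 and 288 at day 14. It had 1936 and 1803 in Cdh1+/F Trps1F/F organoids at day 28 and 1218 and 1314 at day 14. It had 518 and 800 in Trps1+/+ organoids at day 28 and 387 and 537 at day 14. No 2 genotypes overlapped on either day, with Cdh1+/F Trps1F/F highest and Cdh1F/F Trps1F/F lowest. Against Trps1+/+, Cdh1F/F Trps1F/F organoids fell at day 28 (log2 fold change -1.92 ± 0.22, adjusted p = 2.19e-05) and at day 14 (log2 fold change -0.74 ± 0.22, adjusted p = 0.0227), and Cdh1+/F Trps1F/F organoids rose at day 28 (log2 fold change 1.54 ± 0.22, adjusted p = 8.7e-05) and at day 14 (log2 fold change 1.47 ± 0.22, adjusted p = 0.000226).

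At day 14, 3 of the calls between Cdh1F/F Trps1F/F and Trps1+/+ organoids depended on 1 library. Tgfb2 lost its call in 3 of 4 cases in which 1 library was left out (log2 fold change 0.27 to 0.38, adjusted p 0.106 to 0.211, limma), Tgfbi in 3 of 4 (-0.83 to -0.51, 0.0608 to 0.183) and Tgfb3 in 2 of 4 (-0.33 to -0.27, 0.117 to 0.138).

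**Figure D3:**
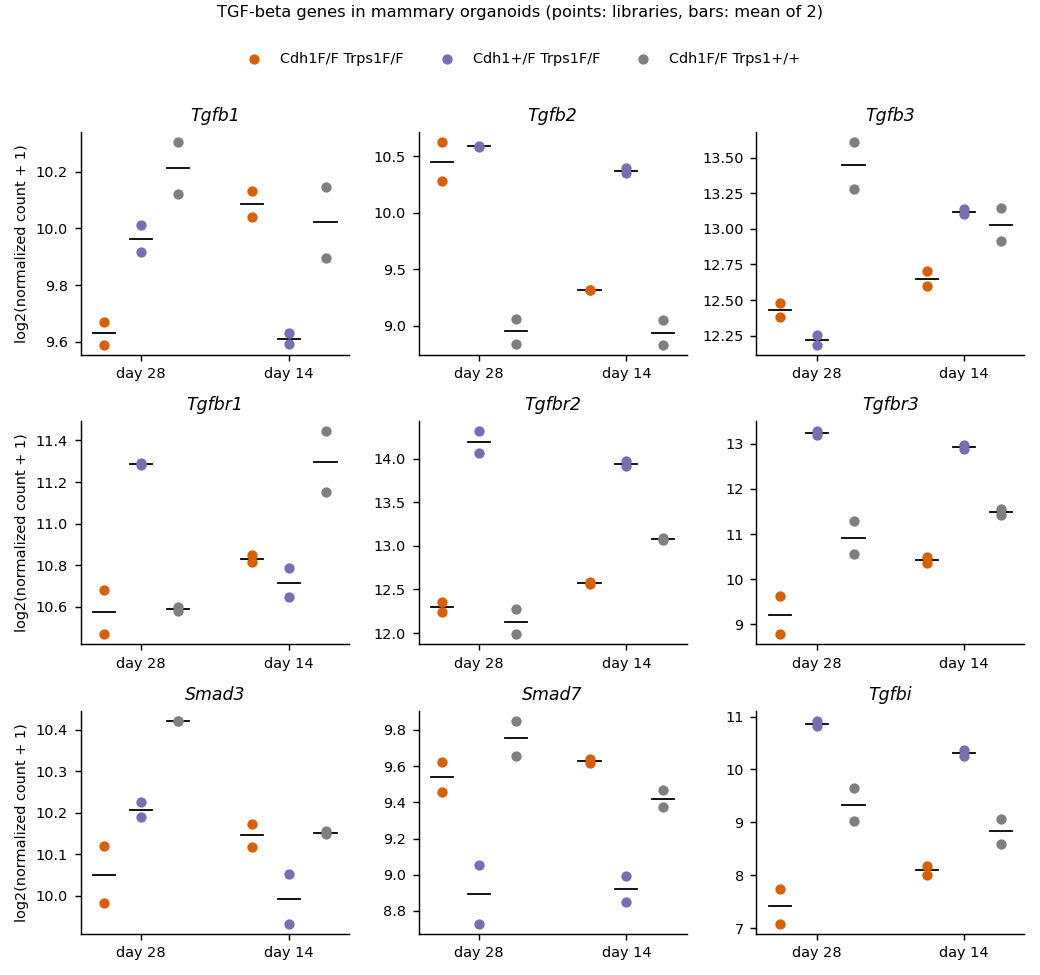
Deposited log2(normalized count + 1) of the 9 TGF-beta genes in organoids at day 28 and day 14, by genotype, with 2 libraries per genotype and day (points) and their mean (bars); vertical scales differ between panels. Tgfbr2, Tgfbr3 and Tgfbi are highest in Cdh1+/F Trps1F/F organoids on both days, and Tgfb2 is higher in both Trps1F/F genotypes than in Trps1+/+.

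The 2 Trps1F/F genotypes differ in their Cdh1 alleles. Trps1 mRNA also differed, with 2123 to 2676 counts in Cdh1F/F Trps1F/F libraries, against 700 to 1050 in Cdh1+/F Trps1F/F libraries. The parts of Cdh1 and of the Trps1 level cannot be told apart here. In Cdh1F/F against Cdh1+/F organoids (both Trps1F/F), 56.7% of genes were called at day 28 (27.7% higher, 29.0% lower) and 40.6% at day 14 (19.0% higher, 21.6% lower). Of the 9 genes, 1 rose and 5 fell at day 28, and 2 rose and 5 fell at day 14. Tgfbi was lower in Cdh1F/F organoids by log2 fold change -3.45 ± 0.22, adjusted p = 3.37e-08 at day 28 and log2 fold change -2.21 ± 0.22, adjusted p = 4.85e-06 at day 14. Tgfbr3 was lower by log2 fold change -4.04 ± 0.24, adjusted p = 1.26e-08 at day 28 and log2 fold change -2.52 ± 0.24, adjusted p = 2.44e-06 at day 14. Tgfbr2 was lower too, by log2 fold change -1.89 ± 0.10, adjusted p = 6.76e-09 at day 28 and log2 fold change -1.37 ± 0.10, adjusted p = 3.52e-07 at day 14. Smad7 was higher on both days (0.65, adjusted p = 0.000439 at day 28, 0.71, adjusted p = 0.00037 at day 14). Tgfbr1 was lower at day 28 (-0.71, adjusted p = 4.85e-05) and did not pass at day 14 (log2 fold change 0.12, 95% interval -0.10 to 0.33, adjusted p = 0.392). Tgfb3 was lower at day 14 (-0.47, adjusted p = 0.00351) and did not pass at day 28 (log2 fold change 0.21, 95% interval -0.026 to 0.44, adjusted p = 0.118). Tgfb1 was higher at day 14 (0.48, adjusted p = 0.00189) and lower at day 28 (-0.33, adjusted p = 0.0118), and the day 28 call was lost without Cdh1+/F Trps1F/F replicate a or Cdh1F/F Trps1F/F replicate 2 (-0.29, adjusted p 0.0648 and 0.0800, limma).

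Fibroblast markers, like Tgfbr2, Tgfbr3 and Tgfbi, were highest in Cdh1+/F Trps1F/F organoids. The 7 markers summed to 7702 to 9197 counts in Cdh1F/F Trps1F/F organoids at day 28 and 19821 to 20447 at day 14. They summed to 318440 to 373730 in Cdh1+/F Trps1F/F organoids at day 28 and 576000 to 651960 at day 14, against 23300 to 36590 in Trps1+/+ organoids at day 28 and 85270 to 88937 at day 14. No marker was at 0. Of the 7 tested markers, all 7 fell in Cdh1F/F Trps1F/F against Trps1+/+ organoids on both days, and 7 at day 28 and 6 at day 14 rose in Cdh1+/F Trps1F/F against Trps1+/+ organoids. The leukocyte markers (5 of 6 tested), endothelial markers (5 tested) and skeletal muscle markers (5 tested) had medians of -1.01, -0.54 and -2.46 in Cdh1F/F Trps1F/F against Trps1+/+ organoids at day 28, and 0.85, 1.67 and 3.27 in Cdh1+/F Trps1F/F against Trps1+/+ organoids. Epithelial markers summed to 148740 to 177220 in Cdh1F/F Trps1F/F and 41009 to 42738 in Cdh1+/F Trps1F/F organoids at day 28, against 103470 to 109790 in Trps1+/+ organoids. The part of these cells in the levels of the 9 genes was not tested.

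**Figure D4:**
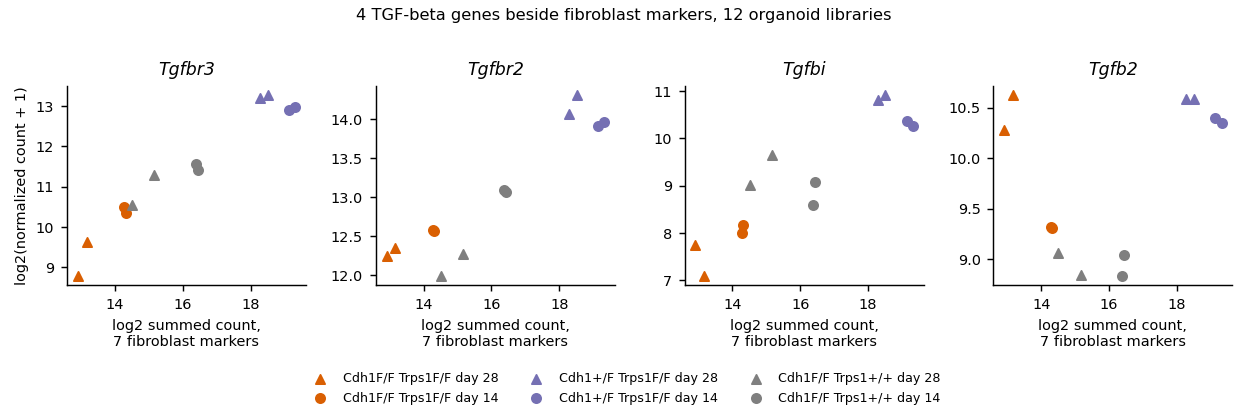
Deposited log2(normalized count + 1) of Tgfbr3, Tgfbr2, Tgfbi and Tgfb2 in the 12 organoid libraries (vertical axes) against the log2 of the summed normalized count of 7 fibroblast markers (horizontal axis). Points are libraries, with color for genotype and triangles for day 28, circles for day 14; the 4 Cdh1+/F Trps1F/F libraries lie at the top right for Tgfbr3, Tgfbr2 and Tgfbi, whereas Tgfb2 is also high in Cdh1F/F Trps1F/F libraries of day 28 at the far left.

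Other genes of the pathway in Cdh1F/F Trps1F/F against Trps1+/+ organoids changed mostly downward for latency and response genes. At day 28, 1 of 10 latency and activation genes rose and 7 fell, led by Ltbp2 (-2.11, adjusted p = 1.74e-07) and Lrrc32, a cell surface anchor of latent TGF-beta (-2.47, adjusted p = 3.83e-07). At day 14, 2 rose and 5 fell, led by Thbs1, the gene of thrombospondin-1, which rose (2.16, adjusted p = 4.39e-08), and Ltbp1 (-0.78, adjusted p = 3.04e-05). Of 14 receptors and Smad regulators, 5 rose and 4 fell at day 28 (Smurf1 0.56, adjusted p = 6.01e-05; Smad2 0.57, adjusted p = 0.00013), and 5 rose and 1 fell at day 14 (Smurf1 0.57, adjusted p = 7.93e-05; Tgif2, a Smad co-repressor, 1.00, adjusted p = 0.00196). Of 11 response genes, 1 rose and 8 fell at day 28, led by Ctgf (-1.88, adjusted p = 2.95e-08) and Tagln, a gene of the contractile apparatus (-1.84, adjusted p = 5.39e-07). At day 14, 1 rose and 5 fell, led by Ctgf (-1.13, adjusted p = 2.29e-06) and Col1a1 (-2.12, adjusted p = 4.42e-05), a collagen gene that fibroblasts make in large amounts.

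In Cdh1+/F Trps1F/F against Trps1+/+ organoids, 1 of 10 latency and activation genes rose and 8 fell at day 28, and 3 rose and 6 fell at day 14. Ltbp2 (-1.96, adjusted p = 1.04e-07) and Ltbp1 (-1.04, adjusted p = 8.96e-07) led at day 28, and Thbs1 (2.38, adjusted p = 9.04e-09) and Itgb8, an integrin subunit that activates TGF-beta (-1.10, adjusted p = 2.01e-05), at day 14. Of 14 receptors and Smad regulators, 1 rose and 7 fell at day 28, and 2 rose and 7 fell at day 14. The inhibitor Pmepa1 fell on both days (-1.68, adjusted p = 4.97e-08 at day 28, -0.75, adjusted p = 0.000121 at day 14), as did Skil, a Smad co-repressor (-0.99, adjusted p = 3.72e-06 at day 28, -0.59, adjusted p = 0.000604 at day 14). Of 11 response genes, 5 rose and 3 fell at day 28, and 4 rose and 3 fell at day 14. Ctgf fell (-2.38, adjusted p = 1.2e-09 at day 28, -2.40, adjusted p = 2.56e-09 at day 14) while Col1a1 rose (3.92, adjusted p = 6.97e-08 at day 28, 3.86, adjusted p = 1.72e-07 at day 14).

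In Cdh1F/F against Cdh1+/F organoids (both Trps1F/F), 4 latency and activation genes rose and 2 fell at day 28, and 3 rose and 5 fell at day 14. Ltbp4 rose on both days (2.14, adjusted p = 1.79e-07 at day 28, 2.40, adjusted p = 1.6e-07 at day 14). Of receptors and Smad regulators, 9 rose and 2 fell at day 28, and 10 rose and 2 fell at day 14. Eng, the endoglin gene of endothelial and mesenchymal cells, fell at day 28 (-2.53, adjusted p = 3.77e-07), and Smurf1 rose on both days (0.76, adjusted p = 1.54e-06 at day 28, 0.89, adjusted p = 8.66e-07 at day 14). Of response genes, 3 rose and 6 fell at day 28, and 3 rose and 5 fell at day 14. Col1a1 fell on both days (-6.74, adjusted p = 3.49e-10 at day 28, -5.98, adjusted p = 2.95e-09 at day 14).

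Over culture time, days were compared within each genotype. In Cdh1F/F Trps1F/F organoids, 35.4% of genes were called between day 28 and day 14 (14.8% higher, 20.6% lower at day 28), and of the 9 genes 1 rose and 3 fell. Tgfb2 rose (log2 fold change 1.14 ± 0.12, adjusted p = 3.11e-05), and Tgfbr3 (log2 fold change -1.22 ± 0.24, adjusted p = 0.00218), Tgfb1 (log2 fold change -0.46 ± 0.1, adjusted p = 0.00419) and Tgfbi (log2 fold change -0.68 ± 0.22, adjusted p = 0.0333) fell. Without Cdh1F/F Trps1F/F day 28 replicate 1 the value for Tgfbr3 was -0.79 and stayed called. Tgfbi lost its call in 3 of 4 cases in which 1 library was left out, with -0.35 without day 28 replicate 2 (adjusted p = 0.308, limma).

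In Cdh1+/F Trps1F/F organoids, 40.8% of genes were called between the days (20.5% higher, 20.3% lower at day 28), and 3 of the 9 genes rose and 1 fell. Tgfb3 fell (log2 fold change -0.90 ± 0.11, adjusted p = 8.48e-05), and Tgfbr1 (log2 fold change 0.57 ± 0.10, adjusted p = 0.000942), Tgfb1 (log2 fold change 0.35 ± 0.1, adjusted p = 0.0136) and Smad3 (log2 fold change 0.21 ± 0.079, adjusted p = 0.0455) rose. The call of Smad3 was lost when any 1 of the 4 libraries was left out, and that of Tgfb1 without replicate a of either day (0.31 to 0.34, adjusted p 0.0744 and 0.0859, limma). In Trps1+/+ organoids, 25.9% of genes were called (11.1% higher, 14.7% lower at day 28), and 2 of the 9 genes rose and 2 fell. Tgfbr2 (log2 fold change -0.95 ± 0.10, adjusted p = 3.35e-05) and Tgfbr1 (log2 fold change -0.71 ± 0.10, adjusted p = 0.000265) fell, and Tgfb3 (log2 fold change 0.42 ± 0.11, adjusted p = 0.0131) and Smad3 (log2 fold change 0.27 ± 0.079, adjusted p = 0.0242) rose. Tgfb3 lost its call without replicate a of either day (0.25 and 0.30, adjusted p 0.133 and 0.129, limma), and Smad3 without any 1 of the 4 libraries. A fit on these 2 groups alone called 2 of the 9, as did leaving out day 14 replicate a. Of the 7 fibroblast markers, 5 fell at day 28 in Cdh1F/F Trps1F/F, 2 in Cdh1+/F Trps1F/F and 4 in Trps1+/+ organoids, and 1 rose in each; their part in these changes was not tested.

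Whether the course differed between genotypes was tested as an interaction. The change from day 14 to day 28 differed between Trps1F/F and Trps1+/+ organoids (both Cdh1F/F) for 17.9% of genes (8.22% higher, 9.72% lower) and for 7 of the 9 TGF-beta genes, with Tgfb2 at log2 fold change 1.12 ± 0.17, adjusted p = 0.00133. A fit on these 4 groups alone called 4 of the 9, and leaving out 1 library left 2 to 7. At day 14, dropping replicate 1 of Cdh1F/F Trps1F/F left 2, replicate 2 of that genotype left 4 and replicate a of Trps1+/+ left 3; at day 28, dropping replicate b of Trps1+/+ left 4. It differed between Cdh1F/F and Cdh1+/F organoids (both Trps1F/F) for 19.2% of genes (7.43% higher, 11.7% lower) and for 7 of the 9, with Tgfbr3 at log2 fold change -1.52 ± 0.34, adjusted p = 0.00684. The third pair of courses, Cdh1+/F Trps1F/F and Trps1+/+, was not tested. Smad7 passed in neither test (log2 fold change -0.42, 95% interval -0.78 to -0.054, adjusted p = 0.102 for Trps1, log2 fold change -0.058, 95% interval -0.42 to 0.31, adjusted p = 0.858 for Cdh1).

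Across the 12 organoid libraries, the tested genes with the pattern most like each member were named by Pearson's r of the log2 values, as a description over 14136 named genes. Libraries of a group share genotype and day, and may share a culture, so these values are set by few groups. Tgfbr3 was most like Alx4 (0.997) and Pdgfrb (0.996), the second of which was among the fibroblast markers. Tgfbr2 was most like Plau and Medag (0.99 each), and Tgfbi most like Galnt5 (0.996) and Dmpk (0.99). Tgfb2 was most like Ctnna2 (0.98) and Esr2 (0.97), Tgfb3 most like Fhod1 and Smoc1 (0.96 each), and Tgfb1 most like Fgfr1 (0.92) and Vps11 (0.88). Tgfbr1 was most like Lmbrd1 (0.96) and Plcl2 (0.95), Smad3 most like Foxn3 (0.93) and Bcl11a (0.91), and Smad7 most like Las1l (0.97) and Ing1 (0.96).

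In tumors, the question was whether tumors with floxed Trps1 differ from Trps1+/+ tumors, both with floxed Cdh1. Between mice of the 2 genotypes (6 against 3), limma called 0 of 15085 tested genes (0%), with 791 genes at an unadjusted p under 0.05, or 5.24%. Of the 9 TGF-beta genes, 1 was among the 791: Tgfbr2 had a log2 fold change of -1.20 ± 0.42 (unadjusted p = 0.0194, adjusted p = 0.803). Its values were 8999, 3534, 10374 and 13225 in subgroup_one, 6917 and 6107 in subgroup_two and 10842 and 16833 in subgroup_three, against 20464, 17756 and 16972 in Trps1+/+ tumors. All 8 Trps1F/F tumors were below all 3 Trps1+/+ tumors, which 3.29% of tested genes showed in either direction on mouse means. Beside this, fibroblast markers had a median of -1.84 (0 of 7 called) and endothelial markers of -1.28 (0 of 5 called), and their part in the value of Tgfbr2 was not tested. The 95% intervals of the other 8 genes spanned 0, from -2.48 to 0.74 for Tgfbr3 to -0.68 to 0.13 for Tgfbr1.

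The labelled subgroups were then each set against the 3 Trps1+/+ mice. In subgroup_one, 15.6% of 15725 tested genes were called (8.91% higher, 6.70% lower) and 1 of the 9 TGF-beta genes. Tgfbi had 3074, 2267, 3257 and 2655 counts in subgroup_one, against 6731, 9888 and 12959 in Trps1+/+ tumors (log2 fold change -1.80 ± 0.25, adjusted p = 0.00358). The 4 tumors of subgroup_one were the lowest of the 11 for this gene. Tgfbr2 was close to the threshold (log2 fold change -1.35, 95% interval -2.27 to -0.43, adjusted p = 0.0555) and passed without subgroup_one replicate 3, the mouse with several tumors (-1.70, adjusted p = 0.0370, limma), and after all libraries were set to 1 median (-1.40, adjusted p = 0.0418, limma).

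Tgfb2 had 532, 553, 2418 and 1346 counts in subgroup_one, against 391, 289 and 366 in Trps1+/+ tumors, without overlap, as for 43.4% of all genes tested, and did not pass (log2 fold change 1.23, 95% interval -0.28 to 2.73, adjusted p = 0.239). Smad3 had 1936, 2406, 1261 and 1690.5 counts in subgroup_one, against 2448, 3264 and 3126 in Trps1+/+ tumors, and did not pass (log2 fold change -0.63, 95% interval -1.15 to -0.11, adjusted p = 0.0997). The authors' deposited table for this contrast gives Tgfb2 a log2 fold change of 1.80 (adjusted p = 0.0242), Tgfbr2 -1.03 (0.0378) and Smad3 -0.69 (0.0344). That table does not say how tumors of 1 mouse were treated, whereas the values above average them; with each tumor as a sample they were 1.51 for Tgfb2, -1.17 for Tgfbr2 and -0.72 for Smad3 (adjusted p 0.134, 0.0661 and 0.0573, limma). Tumors of subgroup_one also differed in Cdh1, at 6909, 9686, 13639 and 8551 counts, against 1599, 326 and 129 in Trps1+/+ tumors (log2 fold change 4.46 ± 1.09, adjusted p = 0.0289).

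Of 10 latency and activation genes, 2 rose and 2 fell in subgroup_one, among them Itgb6, a subunit of an epithelial integrin that activates TGF-beta (4.46, adjusted p = 0.0156), and Itgav (-1.08, adjusted p = 0.00758). Of 14 receptors and Smad regulators, 2 rose and 0 fell: Bambi, a decoy receptor (2.38, adjusted p = 0.00966), and Nedd4l, a ubiquitin ligase (1.70, adjusted p = 0.00661). Of 11 response genes, 1 rose and 3 fell, led by Fn1 (-2.93, adjusted p = 0.0065) and Snai1 (-2.02, adjusted p = 0.00777). Cell type markers differed beside these values. Fibroblast markers summed to 47956 to 413920 in subgroup_one, against 315000 to 781590 in Trps1+/+ tumors, with 1 of 7 called lower. Epithelial markers summed to 63910 to 125990 in subgroup_one, against 9908 to 36138 in Trps1+/+ tumors, with 1 of 6 called higher. Leukocyte markers summed to 13586 to 18713 in subgroup_one, against 30059 to 39146 in Trps1+/+ tumors, with 2 of 6 lower, and endothelial markers to 2802 to 6926, against 10237 to 13577, with 1 of 5 lower. Skeletal muscle markers summed to 106 to 89168 in subgroup_one, against 2083 to 32678 in Trps1+/+ tumors. The part of these cell types in the value of Tgfbi was not tested.

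In subgroup_two, limma called 0 of 15725 genes (0%), with 2096 at an unadjusted p under 0.05, or 13.3%, among them 2 of the 9. Tgfb1 had 6417 and 3781 counts in subgroup_two, against 2269.7, 1522 and 2472 in Trps1+/+ tumors (log2 fold change 1.27, 95% interval 0.54 to 2.00, adjusted p = 0.2). The 2 tumors of subgroup_two had the highest Tgfb1 of all 11. Between subgroup_two and Trps1+/+ tumors, 7 of the 9 genes and 33.4% of all genes tested did not overlap. Like Tgfb1, Tgfbr2 did not pass (log2 fold change -1.50, 95% interval -2.53 to -0.47, adjusted p = 0.243). The authors' deposited table gives Tgfb1 1.29 (adjusted p = 0.0143) and Tgfbr2 -1.50 (adjusted p = 0.0345). Fibroblast markers summed to 38276 and 130530 in subgroup_two, against 315000 to 781590 in Trps1+/+ tumors, and leukocyte markers to 15749 and 39456, against 30059 to 39146. Endothelial markers summed to 2030 and 5030 in subgroup_two, against 10237 to 13577 in Trps1+/+ tumors, without overlap (median log2 fold change -1.97, 0 of 5 called). Skeletal muscle markers summed to 74.6 and 179 in subgroup_two, against 2083 to 32678 in Trps1+/+ tumors. The part of these cell types in the values of Tgfb1 and Tgfbr2 was not tested.

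In subgroup_three, 1 of 15725 genes was called, which was 0.00636% and in the upward direction, and none of the 9. Of all genes, 952 had an unadjusted p under 0.05, and none of the 9 was among them. Tgfbi was 10342 and 11657 and Tgfbr2 10842 and 16833 in subgroup_three, and Tgfbi overlapped the Trps1+/+ tumors while both Tgfbr2 values lay below them. Smad7 had 806 and 525 counts in subgroup_three, below 1368, 1094 and 1507 in Trps1+/+ tumors, without passing (log2 fold change -1.01, 95% interval -2.11 to 0.09, adjusted p = 0.824). Between subgroup_three and Trps1+/+ tumors, 22.5% of all genes tested did not overlap, so such gaps are common here. No gene of the 3 pathway lists was called in subgroup_two or in subgroup_three.

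**Figure D5:**
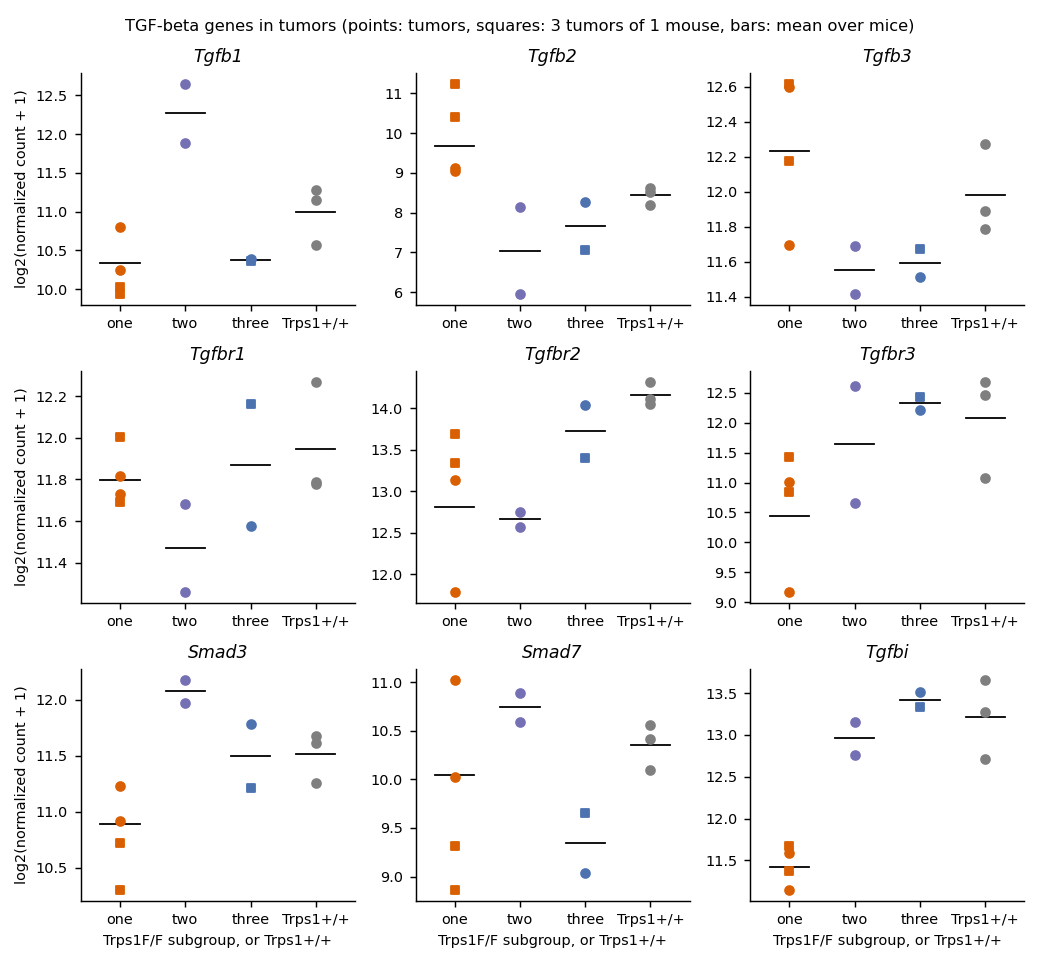
Deposited log2(normalized count + 1) of the 9 TGF-beta genes in tumors, by labelled Trps1F/F subgroup and in Trps1+/+ tumors; points are tumors, squares the 3 tumors of 1 mouse, bars means over mice, and vertical scales differ between panels. Tgfbi is lowest in the 4 tumors of subgroup_one, Tgfb1 highest in the 2 tumors of subgroup_two, and Tgfbr2 lower in all 8 Trps1F/F tumors than in the 3 Trps1+/+ tumors.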

How the data were processed

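The 4 tables hold 33 RNA-seq samples. An AllPrep kit gave the RNA (integrity number above 8) and a TruSeq RNA kit the libraries, per the labels' protocols. TopHat, HTSeq and GRCm38 are named in the submitters' processing notes, without versions. The deposited values are log2 normalized counts made by the authors. In each library they equaled log2(normalized count + 1), the normalized count being whole reads times 1 factor: 100% of values came out whole with a tolerance of 0.01 reads (for large values a share of 1e-05). The authors' deposited tables of comparisons, with log2 fold changes and adjusted p-values, were used where named; signs in the guide table run sgScr over sgTrps1 and are not printed. Reads per library ran from 17809076 to 25614664 (TSA table), 21374526 to 38773075 (guides), 14858175 to 30341900 (organoids) and 18320414 to 24225027 (tumors). Intervals and floors cover counting error only.

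The log2 values were tested as deposited, without a count model, with limma 3.58.1 in R 4.3.3 (lmFit, eBayes with a trend). Genes entered the test with a normalized count plus 1 of at least 10 in as many libraries or mice as the smallest group held. Organoids were fitted with all 6 groups together. Tumors of a mouse were averaged, for subgroups within a subgroup. Of the organoid columns, 8 share a header with another, so replicates a and b are named in column order. No libraries of a group agreed within sampling noise (chi-square per degree of freedom 1.56 to 210). Gene symbols stored as dates were not used. Replicate numbers were checked for pairing: same-numbered libraries did not deviate together with TSA (r = -0.11, 0.03 and -0.12). The fit was checked on simulated log2 values with a normal spread, which does not test low counts.

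The 9 genes, the lists (latency and activation, receptors and Smad regulators, response genes, and markers of fibroblasts, leukocytes, endothelium, skeletal muscle and mammary epithelium) and the tests were chosen with earlier results of these data known. All 9 genes are named; from each list, up to 2 called genes with the smallest p are named per comparison, apart from 1 gene that is not reported here. Alternatives were no filter, a pseudocount of 8, quantile normalization, a common median, a replicate block, fits on the groups compared, each tumor as a sample and leaving out each library or mouse.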

Additional observations from a re-analysis of the deposited data

Results flagged for a closer look

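For 7 of the 9 TGF-beta genes, the change from day 14 to day 28 differed between Trps1F/F and Trps1+/+ organoids (both Cdh1F/F), by the test of the difference itself with limma. Of all genes, 17.9% were called, and a fit on these 4 groups alone called 4 of the 9. On the log2 scale the difference of the changes was 1.12 for Tgfb2, 0.67 for Tgfbr2 and 0.45 for Tgfbr1. It was -0.65 for Tgfb1, -0.64 for Tgfb3, -0.36 for Smad3 and -1.17 for Tgfbi. The adjusted p ran from 0.00133 (Tgfb2) to 0.045 (Tgfbr1). Of these, Tgfb2 and Tgfbr2 kept their call whichever of the 8 libraries was left out. The call was lost for Smad3 in 7 of 8 cases, for Tgfbr1 in 6, for Tgfbi in 5, for Tgfb3 in 2 and for Tgfb1 in 1, without Cdh1F/F Trps1F/F day 14 replicate 1 (-0.60, adjusted p = 0.0545). The 2 cases for Tgfb3 were Trps1+/+ day 14 replicate a and Cdh1F/F Trps1F/F day 14 replicate 1 (-0.58 to -0.52, adjusted p 0.0736 and 0.0738).

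For 7 of the 9 genes the change also differed between Cdh1F/F and Cdh1+/F organoids (both Trps1F/F), as it did for 19.2% of all genes. The difference was 0.92 for Tgfb2 and 0.68 for Tgfb3. It was -0.81 for Tgfb1, -0.83 for Tgfbr1, -0.52 for Tgfbr2, -1.52 for Tgfbr3 and -1.24 for Tgfbi. The adjusted p ran from 0.00145 (Tgfbr1) to 0.0257 (Tgfbr2). The call was lost for Tgfbr2 in 6 of 8 cases and for Tgfbi in 4, and the other 5 genes kept theirs. The interactions share the Cdh1F/F Trps1F/F libraries. In the 6 mice with Trps1F/F tumors, 0 of the 9 genes had a mouse far from the others; smaller groups were not tested for this.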

How the results depend on the processing

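Of the counts of TGF-beta genes called under the alternatives that kept all libraries, 83 stayed within 1.5 times the value given, 1 was larger and 2 were smaller. Of the values of single genes under those alternatives, 735 kept direction and side of the threshold, 14 lost and 11 gained a call, 7 values without a call changed sign and 1 reversed and became called: Tgfbi with TSA under quantile normalization (-0.70), and the cause was not tested. Fits on only the groups compared gave 2 genes in place of 4 between days in Trps1+/+ organoids and 4 in place of 7 for the difference between Trps1F/F and Trps1+/+ courses, with fewer samples for the spread. With a common median, 2 genes in place of 1 were called in tumors of subgroup_one, and the cause was not tested. Leaving out 1 library gave 3 to 5 genes, against 6, for Cdh1F/F Trps1F/F against Trps1+/+ organoids at day 14. It gave 2 to 4, against 4, between days in Cdh1+/F Trps1F/F organoids, 2 to 4, against 4, between days in Trps1+/+ organoids, 2 to 7, against 7, for the Trps1 difference of courses and 1 to 2, against 1, in subgroup_one. With the replicate block, 7 TGF-beta genes were called with TSA (Tgfbr3 included) and 7 with the guide (Tgfbi included), as without it. Same-numbered guide libraries deviated in opposite directions (r = -0.24), and the crossed replicate block, chosen after seeing the data, gave 7. 

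Quantile normalization moved the share of higher calls to 42.0%, against 53.7%, for Cdh1+/F Trps1F/F against Trps1+/+ organoids at day 28. For Cdh1F/F against Cdh1+/F organoids (both Trps1F/F) it was 59.9%, against 48.9%, at day 28 and 57.0%, against 46.8%, at day 14; the median of all genes was 0.14 with it, against 0.019, at day 28. A common median moved the median of all genes in subgroup_two to 0.12, against -0.0051. For all genes, calls in subgroup_two were 1 with a pseudocount of 8, against 0, and 0 to 13 without 1 mouse. Those in subgroup_three were 2 with a pseudocount of 8, 2 with quantile normalization and 3 with each tumor as a sample, against 1, and 0 to 27 without 1 mouse. Without 1 library or mouse they were 1047 to 3432, against 2845, for the Trps1 difference of courses, 1961 to 2828, against 3038, for the Cdh1 difference and 1122 to 1986, against 2454, in subgroup_one. Between days they were 2851 to 5671, against 5613, in Cdh1F/F Trps1F/F, 3793 to 5106, against 6466, in Cdh1+/F Trps1F/F and 2364 to 3047, against 4104, in Trps1+/+ organoids. At day 14 they were 3335 to 4305, against 5145, for Cdh1F/F Trps1F/F and 3747 to 5040, against 5755, for Cdh1+/F Trps1F/F, each against Trps1+/+. Without mouse 5 of Trps1F/F, 1 gene was called between tumor genotypes, against 0. Low counts limit Tgfbr3 in HC11 cells, 2 libraries a group limit the organoids, and 2 or 3 mice a group the tumor subgroups.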

Other observations

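The other genes of the pathway were also compared over culture time. Between the days, 35.4% of all genes were called in Cdh1F/F Trps1F/F, 40.8% in Cdh1+/F Trps1F/F and 25.9% in Trps1+/+ organoids. Calls in the lists below are to be read beside these shares. In Cdh1F/F Trps1F/F organoids, 1 of 10 latency and activation genes rose and 5 fell at day 28 against day 14, led by Lrrc32 (-1.24, adjusted p = 0.000264) and Ltbp1 (-0.51, adjusted p = 0.00119), from limma over all genes. Of 14 receptors and Smad regulators, 2 rose and 3 fell, with Smad2 (0.44, adjusted p = 0.00178) higher and Eng (-0.94, adjusted p = 0.0049) lower. Of 11 response genes, 0 rose and 4 fell, led by Fn1 (-1.33, adjusted p = 1.68e-05) and Tagln (-1.29, adjusted p = 3.57e-05). In these organoids the fibroblast marker sum was 7702 to 9197 at day 28, against 19821 to 20447 at day 14, with 1 of 7 markers higher and 5 lower, and the part of these cells was not tested.

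In Cdh1+/F Trps1F/F organoids, 2 latency and activation genes rose and 6 fell, led by Ltbp1 (-0.77, adjusted p = 7.84e-05) and Ltbp3 (-0.89, adjusted p = 0.00016). Receptors and Smad regulators split, with 3 higher and 3 lower, led by Bambi (-0.63, adjusted p = 0.000836) and the receptor Acvrl1 (-0.66, adjusted p = 0.00261). Of the response genes 4 rose and 3 fell, led by Snai2, a transcription factor of the mesenchymal program (1.16, adjusted p = 7.18e-05), and Ctgf (0.54, adjusted p = 0.000899). Beside these, 5 of 6 epithelial markers fell (median -1.21), 5 of 5 skeletal muscle markers rose (median 1.69), and 1 of 7 fibroblast markers rose and 2 fell. In Trps1+/+ organoids, 4 latency and activation genes rose and 0 fell, led by Ltbp2 (1.57, adjusted p = 4.22e-06) and Thbs1 (1.02, adjusted p = 3.25e-05). One receptor or regulator rose, Pmepa1 (0.88, adjusted p = 7.52e-05), and 1 fell, Smad4 (-0.30, adjusted p = 0.013). Of the response genes 4 rose and 3 fell, led by Ctgf (0.52, adjusted p = 0.00153) and Cdkn2b, a cell cycle inhibitor (0.59, adjusted p = 0.0063). Beside these, 1 of 7 fibroblast markers rose and 4 fell (median -1.65), and 4 of 5 endothelial markers fell (median -2.05). The part of these cells was not tested in either genotype.

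The difference of these time courses between Trps1F/F and Trps1+/+ organoids (both Cdh1F/F) passed for 17.9% of all genes. It passed for 6 latency and activation genes, 2 receptors and Smad regulators and 5 response genes, each with a lower value in Trps1F/F. Ltbp2 (-1.66, adjusted p = 0.000343), Ltbp3 (-1.23, adjusted p = 0.000798), Pmepa1 (-0.77, adjusted p = 0.00535), Ski, a Smad co-repressor (-0.49, adjusted p = 0.00943), Ctgf (-0.75, adjusted p = 0.00338) and Fn1 (-0.87, adjusted p = 0.00723) led their lists. Between Cdh1F/F and Cdh1+/F organoids (both Trps1F/F), it passed for 19.2% of all genes. Of the lists, 2 latency and activation genes were higher and 1 lower, 1 regulator was higher and 5 response genes were lower. These were led by Thbs1 (0.83, adjusted p = 0.00281), Lrrc32 (-1.10, adjusted p = 0.00759), Bambi (0.62, adjusted p = 0.0137), Fn1 (-1.27, adjusted p = 0.000387) and Tgfb1i1, a focal adhesion gene that TGF-beta induces (-1.53, adjusted p = 0.000488).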
